A study of Mus musculus with 31 samples.

Results

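This account covers 10 genes of the pathway by which cells present their own peptides on MHC class I molecules. They are the heavy chain genes H2-K1, H2-D1 and H2-T23, the light chain gene B2m, the peptide transporter genes Tap1 and Tap2, the loading factor gene Tapbp, the inducible proteasome subunit genes Psmb8 and Psmb9, and the transcriptional regulator gene Nlrc5. They were chosen by name, and each of the 10 symbols matched 1 of the 47069 Ensembl genes of the deposited tables. RNA had been sequenced from 31 single cells of the lung of 10-week-old Csf1r-GFP mice, whose cells carry a green fluorescent reporter of the CSF1 receptor gene. The mice had undergone a sham thoracotomy 7 days earlier, in which the chest is opened without further injury, and the right lobes were taken. The sort gated on CD45, an antigen of leukocytes, on the reporter and on F4/80, an antigen of macrophages, and its label also lists Ly6G, an antigen of neutrophils, without a sign. All cells form 1 group, no animal is named and no other treatment or genotype was analysed here, so the group is 1 sample. Since cells do not replicate a condition, no test was run, and spreads and intervals describe these cells only.

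Class I molecules consist of a polymorphic heavy chain and the invariant light chain beta-2-microglobulin. Proteasomes cut cytosolic proteins into peptides, the transporter formed by TAP1 and TAP2 carries these into the endoplasmic reticulum, and tapasin, the product of Tapbp, holds empty class I molecules at the transporter until a peptide binds. Interferons raise most of these genes, and interferon-gamma leads cells to exchange constitutive catalytic proteasome subunits for the inducible ones. NLRC5 acts with factors bound to conserved promoter boxes of class I genes.

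The cells fell into libraries of different kinds, and this bears on every value of the 10 genes. In 20 cells Lyz2, the lysozyme gene of monocytes and macrophages, reached at least 1000 FPKM (fragments per length of transcript, scaled to the size of the library). The cell just inside this threshold had 1229 FPKM of Lyz2 and the cell just outside had 553. These 20 libraries held about 521492 to 4059830 expected counts, of which 87.4% to 95.6% were on nuclear protein-coding genes. Of the 11 other libraries, 10 had 32.8% to 61.6% of counts on such genes and a median of 373305 counts, and 1, from well F11, had 87.9%, no Lyz2 and 11206 FPKM of the class II gene H2-Aa. Values are given for the 20 Lyz2-high cells first. Among these, Csf1r was present (FPKM 1 or more) in 20, the CD45 gene Ptprc in 19, the F4/80 gene Adgre1 in 15 and Ly6g in 7. Of 10 markers each, classical monocytes had 8 present in at least 50% of the 20 cells, nonclassical monocytes 3 and interstitial macrophages 0. The share over all genes present in any of these cells was 13.2%. The nonclassical markers were led by Gngt2, in 16 cells at a median of 1321 FPKM. Of the interstitial macrophage markers, 9 were found in at least 1 cell, with Cx3cr1 in 9 cells and C1qc in 8. Of the alveolar macrophage markers, 9 were found in none, so the macrophage label is borne out only in part. Markers of T and NK cells (9 of 10 in none), of B cells (5 of 8 in none), of dendritic cells (7 of 10 in none) and of lung structural cells (8 of 10 in none) were found seldom, except that the immunoglobulin gene Ighm was present in 7 of the 20 cells at up to 1045 FPKM, and its part in the results was not tested. Of the neutrophil markers 5 of 10 were in none, and 1 was present in at least 50% of the 20 cells. This was Cxcr2, in 10 cells at up to 9.74 FPKM. Csf3r was present in 9 cells at up to 189 FPKM, Ly6g in 7 at up to 115 and Mmp8 in 4 at up to 398.

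Of the 10 genes, 8 lie on chromosome 17 of GRCm38, within 2117 kb between the start of Tapbp at 33915899 and the end of H2-T23 at 36032855. B2m lies on chromosome 2 from 122147686 to 122153083 and Nlrc5 on chromosome 8 from 94434356 to 94527272. All 10 are annotated as protein-coding. RefSeq promoter windows, 250 bases before to 50 after each start on GRCm38.p6, were found for 8 of the 10, all but Tap2 and Nlrc5. They are shown for genes whose RNA was found in every Lyz2-high cell. Capitals mark matches, on either strand, to an interferon response motif, in which GAAA occurs 2 times with any 2 bases between, and its shorter form, in which the earlier repeat is GAA, to the kappa B motif that opens both blocks shown, to the CCAAT box and to TGACG, the core bound by CREB and ATF factors. The sequence before H2-K1 is chr17:34000348-34000507 on the minus strand, and that before B2m is chr2:122147527-122147685 on the plus strand.
H2-K1 promoter: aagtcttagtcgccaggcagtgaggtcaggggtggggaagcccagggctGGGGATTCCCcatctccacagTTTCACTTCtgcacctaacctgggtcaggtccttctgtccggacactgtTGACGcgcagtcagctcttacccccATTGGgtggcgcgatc
B2m promoter: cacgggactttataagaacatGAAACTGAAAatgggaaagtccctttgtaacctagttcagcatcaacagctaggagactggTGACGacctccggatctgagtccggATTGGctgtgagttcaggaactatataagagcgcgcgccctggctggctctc
The kappa B motif was found in 35 of 32851 RefSeq windows (0.107%), and H2-K1 and H2-D1 were both among them. In each it was followed by the shorter interferon motif, and the 2 stretches, chr17:34000429-34000458 (minus strand) and chr17:35262923-35262952 (plus strand), matched at 29 of 30 bases. The GENCODE annotation starts H2-D1 at 35262730, so the H2-D1 stretch lies before the RefSeq start but within the annotated gene.
H2-K1 block: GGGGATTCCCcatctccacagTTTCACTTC
H2-D1 block: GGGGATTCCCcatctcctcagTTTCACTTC
The shorter interferon motif was chosen after the promoters had been read, and 7.52% of windows hold it. The longer one was found for B2m and H2-T23 among the 8 genes and in 3.44% of windows. CCAAT was found for 7 of the 8 genes against 37.4% of windows, and TGACG for 5 of the 8 against 20.8%. Both counts include Tap1 and Psmb9, whose matches are the same sites between their starts, each counted for both genes. A gene was counted if any of its windows held the motif, and H2-K1 has more than 1, whereas the shares are over windows. A match is a description of letters, not a measured site.

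Tap1 and Psmb9 are transcribed in opposite directions from RefSeq starts only 225 bases apart, at 34187556 and 34187330. The space between these RefSeq starts is shown in 2 stretches with the same marking, chr17:34187331-34187360 and chr17:34187458-34187487 (plus strand). In the GENCODE annotation Psmb9 extends to 34187764, past the start of Tap1 at 34187553. There the 2 genes overlap, and both stretches lie within Psmb9. Of their 50-base stretches, 3.33% of Tap1 and 4.19% of Psmb9 occur in other annotated genes, each other included, and the libraries carry no strand. Tap1 was present in 3 and Psmb9 in 5 of the 20 Lyz2-high cells, and both in 1.
Tap1 and Psmb9, first stretch: tttCCAATcagcggctgcgcgcggtgcagg
Tap1 and Psmb9, second stretch: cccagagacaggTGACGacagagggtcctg

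Transcripts of the 3 most abundant genes were found in every Lyz2-high cell, whereas those of the transporter and the regulator were rare or not found. In the 20 cells, H2-K1, H2-D1 and B2m were present in 20, H2-T23 in 18, Psmb8 in 14, Tapbp in 10, Psmb9 in 5, Tap1 in 3, Tap2 in 1 and Nlrc5 in 0. Presence in at least 50% of the 20 cells was met by 6 of the 10 genes, against 13.2% of the 10818 genes present in at least 1 of them. Presence in all 20 was met by 3 of the 10, against 1.32%. The exact Clopper-Pearson 95% interval of a share of 20 of 20 cells is 83.2% to 100%. It covers counting error over cells only, as do all intervals given here, and reads without molecular identifiers are not independent molecules. A cell held 4 to 8 of the 10 genes, with a median of 5.5. The plot of levels by cell shows how uneven this was.

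**Figure D1:**
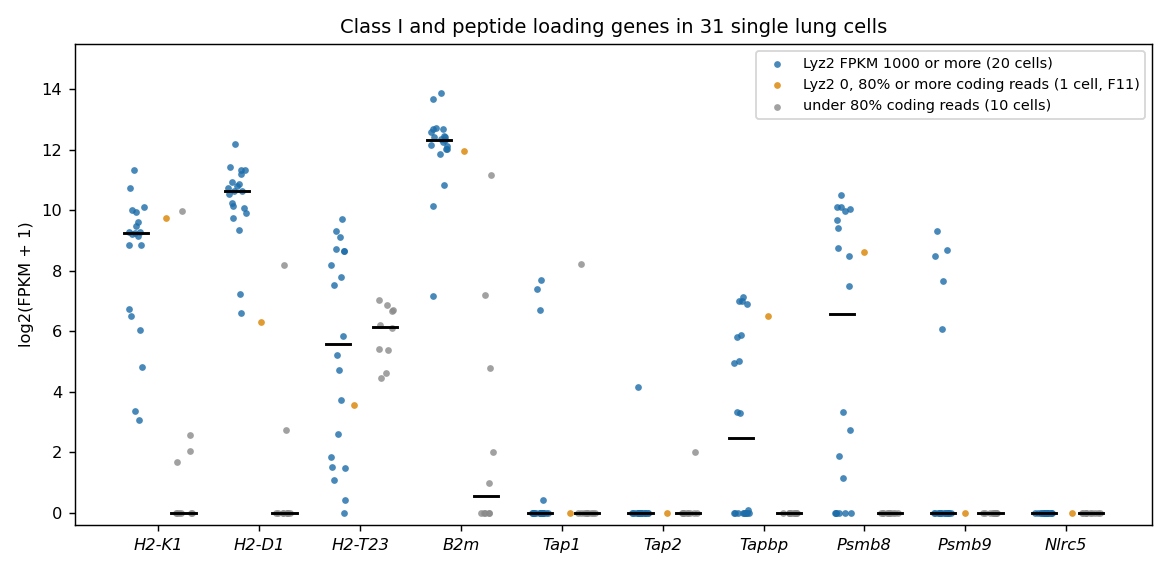
Level of each of the 10 genes, as log2(FPKM + 1), in the 20 Lyz2-high cells (blue), in the cell of well F11 (orange) and in the 10 libraries with under 80% of counts on protein-coding genes (grey). Each point is 1 cell and each bar a median; B2m has the highest median, H2-T23 alone has a higher median in the grey libraries than in the blue cells, and Nlrc5 is at 0 throughout.

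H2-D1, which encodes the classical heavy chain of the D locus, ranged from 96.6 to 4690 FPKM in the Lyz2-high cells, with a median of 1598. The mean of log2(FPKM + 1) was 10.30 ± 1.33 (SD over 20 cells). The lowest cells were H4 at 96.6 and E7 at 151, and every other cell was at 647 or above. By median it ranked 88th among the 1868 genes with a median over 0.

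H2-K1, the classical heavy chain of the K locus, ranged from 7.38 to 2569 FPKM, with a median of 606, and ranked 233rd. Its mean of log2(FPKM + 1) was 8.28 ± 2.37 (SD over 20 cells). The spread was wider than that of H2-D1, and 6 cells lay far below the rest. H2-K1 was 7.38 FPKM in H4, 9.30 in E7, 27.2 in A12, 65.7 in C8, 89.6 in A10 and 106 in A6, while the other 14 cells were at 457 or above. Of these 6 cells, 4 had 953 to 1714 FPKM of H2-D1, within the range of the 14.

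The ratio of H2-D1 to H2-K1 therefore showed a gap. It was 0.58 to 4.15 in 14 cells and 10.6 to 41.8 in the 6 cells, with a median of 3.17 over all 20. H2-D1 was the higher in 17 of 20 cells, and F10, G8 and C7 were the exceptions. The 6 cells all had Ly6c2, the gene of the classical monocyte antigen Ly6C, and 4 further cells with Ly6c2 were among the 14. Totals of the 6 ran from 521492 counts in C8 to about 3526670 in H4, and those of the 14 from 767318 to about 4059830. The cells' summed level of 16 other class I and class I-like heavy chain genes was 0.38 to 27.2 FPKM in these 6, and 0 to 2466 in the 14, where 4 were under 30. The coding sequences of H2-K1 and H2-D1 are 92.0% identical, with a longest shared run of 91 bases, so reads can fit both and RSEM divides such reads by estimation. Expected counts were not whole for H2-D1 in 18 of the 20 cells and for H2-K1 in 3, the mark of divided reads. For H2-K1 these 3 were C6, D4 and D6, all among the 14. In the 6 cells the H2-K1 counts were whole, from 18 in E7 to 295 in A10. The part of divided reads in the gap was not tested.

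**Figure D2:**
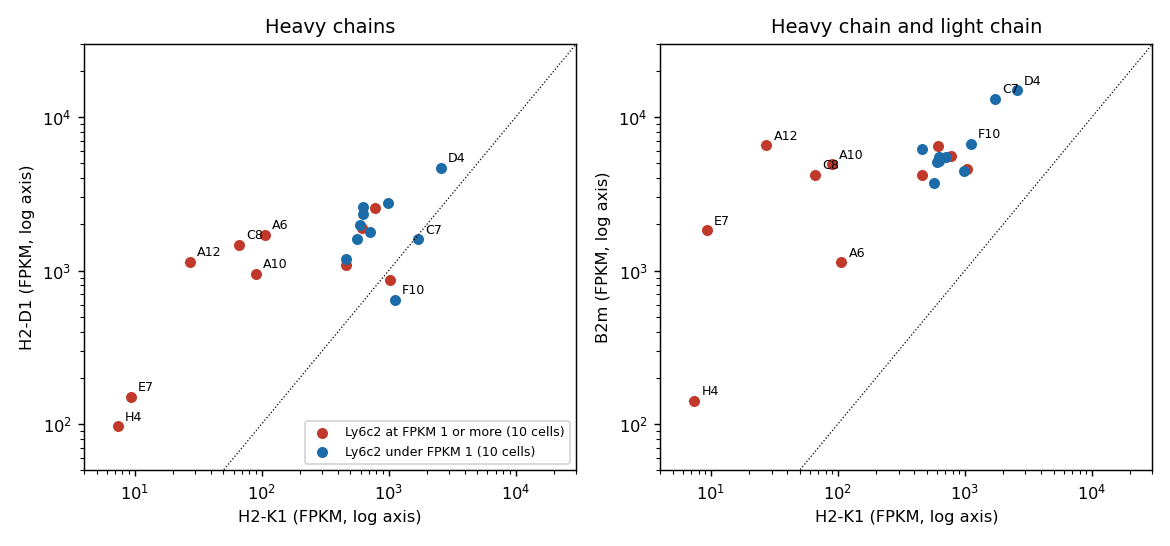
FPKM of H2-D1 (left) and B2m (right) against H2-K1 in the 20 Lyz2-high cells, on log axes, with the dotted line at equal levels. Red points are cells with Ly6c2 at FPKM 1 or more and blue points the others; the 6 cells with 7.38 to 106 FPKM of H2-K1 are all red.

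B2m, the gene of the common light chain, had the highest level of the 10. It ranged from 142 to 14938 FPKM with a median of 5155, which ranked 18th among all genes, and its mean of log2(FPKM + 1) was 12.04 ± 1.40 (SD over 20 cells). H4 was lowest at 142, followed by A6 at 1129 and E7 at 1825. D4 at 14938 and C7 at 13215 were highest, and the remaining 15 cells lay between 3741 and 6729. B2m exceeded H2-K1 in 20 of 20 cells and H2-D1 in 19 of 20, A6 being the exception. Relative to H2-K1 and H2-D1 summed, B2m was 0.62 to 11.4 times as high, with a median of 2.31. No read count of B2m was split, and none of its 50-base stretches occurs in another gene of the annotation.

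The order B2m over H2-D1 over H2-K1 was the only stretch of the ranking that held in at least 80% of the 20 cells. The next neighbours did not differ beyond their spread over cells. H2-K1 was above Psmb8 in 13 cells, Psmb8 above H2-T23 in 11 and H2-T23 above Tapbp in 15 of 20. With a Lyz2 limit of 100 FPKM the median of Psmb8 was 2.64 and that of H2-T23 56.7, the opposite order. Psmb9, Tap1, Tap2 and Nlrc5 all had a median of 0. The 10 genes together took 0.0601% to 2.15% of all FPKM of a cell, with a median of 0.769%, and the lowest share belonged to H4 and the highest to D4.

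H2-T23, whose product Qa-1 presents signal peptides of other class I molecules to inhibitory receptors of NK cells, behaved unlike the classical heavy chains. It ranged from 0 to 834 FPKM with a median of 46.5 in the 20 cells. E7 at 834 and H4 at 420, the cells lowest in H2-K1, were among those high in H2-T23, together with C11 at 643, H5 at 558, A6 at 401 and C8 at 401. B4 had none, and C6 was at 0.33. Its Spearman correlation with H2-K1 over the 20 cells was −0.31. Its expected counts were not whole in all 19 cells with reads, and 14.5% of its 50-base stretches occur in other annotated genes.

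The transporter genes were found in few cells. Tap1 had 103 FPKM in C7, 167 in D6 and 207 in G8, and 0.34 or less in the other 17 Lyz2-high cells, a share of 15% (95% interval 3.21% to 37.9%). Tap2 was found at 16.9 FPKM in C8 alone, a share of 5% (0.127% to 24.9%). No cell held both genes. Tapbp was present in 10 of 20 cells, from 8.94 FPKM in F1 to 141 in C11, and it lay at 0.07 or below in the other 10. Within these 10 cells, C7 alone also held Tap1 and C8 alone also held Tap2. Tapbp reads overlap in part with other genes, since 23.2% of its 50-base stretches recur elsewhere, and Zbtb22, which overlaps it, was present in 1 cell at 2.09 FPKM.

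The inducible subunits of the proteasome were found in different numbers of cells. Psmb8, whose product LMP7 replaces the chymotrypsin-like subunit of Psmb5, was present in 14 of 20 cells and ranged up to 1456 FPKM with a median of 95.3. The 14 cells divided into 10 with 182 FPKM or more and 4 with 9.05 or less. Psmb9, whose product LMP2 replaces the subunit of Psmb6, was present in 5 cells, at 630 FPKM in A12, 409 in F1, 358 in C7, 202 in H5 and 67.3 in C8. It was at 0 in the other 15, and 4 of the 5 cells also held Psmb8. Tap1, its neighbour across the shared start region, was present together with it in C7 alone. In that cell Tap1 was at 103 FPKM and Psmb9 at 358. Psmb10, the gene of the third inducible subunit, was present in 12 cells with a median of 24.1 FPKM, 8 of which also held Psmb8, and C7 was the only cell with all 3.

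Set beside their constitutive partners, the inducible subunits did not prevail as a group. Psmb8 was higher than Psmb5 in 13 cells and lower in 4, with neither in 3. Psmb9 was higher than Psmb6 in 1 cell, A12 with 630 against 617 FPKM, and lower in 7. All 5 cells with Psmb9 also held Psmb6, and Psmb6 was found without Psmb9 in 3. Psmb10 was higher than Psmb7, its constitutive partner, in 9 cells and lower in 10, and 7 cells held each of them alone. Summed over the 3 pairs, the inducible subunits were higher in 9 cells and the constitutive ones in 11, with medians of 489 and 640 FPKM. Any inducible subunit was found in 18 cells and any constitutive one in 14. The coding sequences within a pair are 64.6% to 68.9% identical with no shared run over 18 bases.

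**Figure D3:**
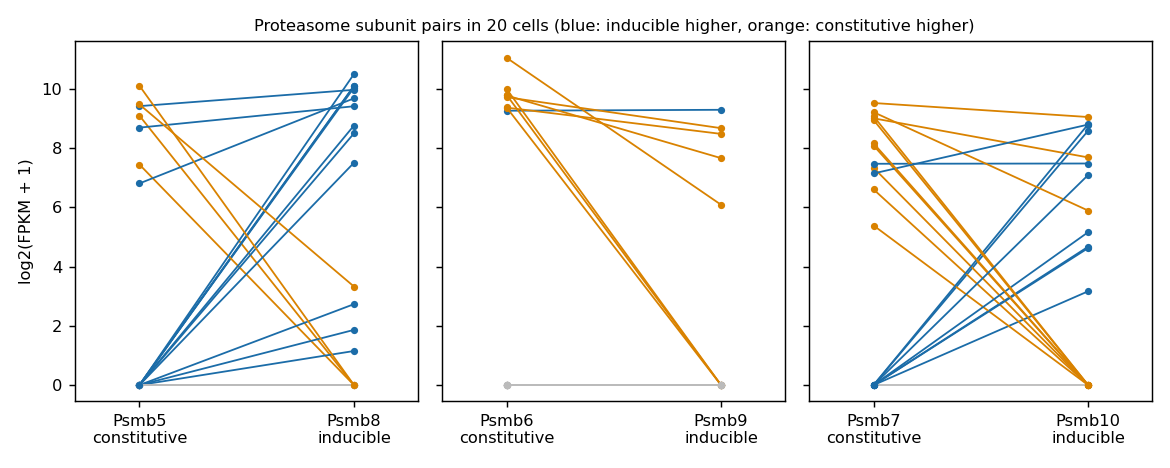
log2(FPKM + 1) of the constitutive (left) and inducible (right) subunit of each pair in the 20 Lyz2-high cells, with 1 line per cell, blue where the inducible subunit is higher and orange where the constitutive one is. Most lines of the Psmb8 pair are blue (13), 7 of the 8 lines above 0 in the Psmb9 pair are orange, and the Psmb10 pair is mixed (9 blue, 10 orange).

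Nlrc5 had no read in any of the 31 cells. A count of 0 of 31 cells allows a share of cells with a read of up to 9.68%, and 0 of 20 up to 15%, taken as 3 cells of the total, while exact Clopper-Pearson limits are 11.2% and 16.8%. Transcripts below the detection limit of such libraries would not be seen, and the cells did hold class I transcripts. Among 14 factors that act on class I genes, fixed as a list together with Nlrc5, the kappa B subunit genes Nfkb1 (12 cells) and Rela (11) were found in most Lyz2-high cells, and the CREB gene Creb1 was found in 7. Only Nfkb1 and Rela, 2 of the 14, were found in at least 50%, a share close to the 13.2% of all genes. Their medians were 82.3 and 1.86 FPKM.

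Genes that work beside the 10 in the endoplasmic reticulum were found more often than the transporter. Of 9 other peptide loading and folding genes, 7 were present in at least 50% of the 20 cells, against 13.2% of all genes. They were led by Hspa5, the chaperone BiP, in 18 cells with a median of 375 FPKM, and by Calr, the gene of calreticulin, in 16 with a median of 65.4. Canx, the gene of calnexin, was present in 15 and Sec61b, of the translocon, in 14. Of 4 other inducible proteasome genes 3 passed 50%, with the activator subunit genes Psme1 in 14 cells and Psme2 in 12, at medians of 205 and 404 FPKM. Of 11 further core subunit genes 5 did so, with Psma7 in 16 cells and Psmb2 in 14. Of 14 genes of the interferon-gamma receptor and response 3 did so. These were Ifngr1, a receptor chain gene, in 16 cells, the kinase gene Jak1 in 12, and the chemokine gene Cxcl10 in 11, which reached 14557 FPKM in 1 cell, while Socs1, Igtp and Cxcl9 were found in none. The MHC class II pathway had 6 of 10, with the protease gene Ctss in 20 cells and the invariant chain gene Cd74 in 17. Other class I heavy chain genes were rare in these cells. H2-Q7 was present in 15 at a median of 8.56 FPKM, but none of the other 15 in over 6, and 5 were in none. Counts over lists describe these cells and were not tested.

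Among the 20 cells, 6 members differed by at least 1 in mean log2(FPKM + 1) between cells with and without Ly6c2. In the 10 cells with Ly6c2, H2-K1 had a median of 97.9 FPKM (7.38 to 1031), and in the 10 without it had 666 (457 to 2569). The ranges overlapped, but 6 of 10 cells with Ly6c2 were below all cells without it. The difference, with minus without, was −2.91 for H2-K1, with SDs over cells of 2.56 and 0.79. Tapbp differed by −2.81 and was present in 3 against 7 cells, and Psmb8 by −1.98, in 5 against 9 cells. H2-D1 differed by −1.15, with medians of 1111 and 1872 FPKM, and B2m by −1.19, with medians of 4393 and 5470. H2-T23 differed in the other direction, by 2.21, with medians of 140 and 3.82 FPKM. The groups overlapped for every one of these genes. Tap1 and Psmb9 differed by −0.68 and −0.94. Of the 8 members present in at least 3 of these cells, 5 were lower by at least 1 in cells with Ly6c2, against 23.1% of all 5741 such genes, and 1 was higher, against 20.3%. The median difference was −1.17 over the 8 and −0.06 over all genes. Cells H4 and E7 weighed on this. Without E7 or without H4 the difference of H2-D1 came nearer to 0 than −1, at up to −0.81, and without H4 that of B2m was −0.72. With a Lyz2 limit of 100 FPKM, which admits 5 low-coding libraries, both turned, to 0.73 and 0.064, and Psmb8 came to −0.60. With a pseudocount of 10 Psmb8 was at −0.94. Median totals were about 1233770 counts in cells with Ly6c2 and 1812010 in cells without, and the part of depth was not tested.

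**Figure D4:**
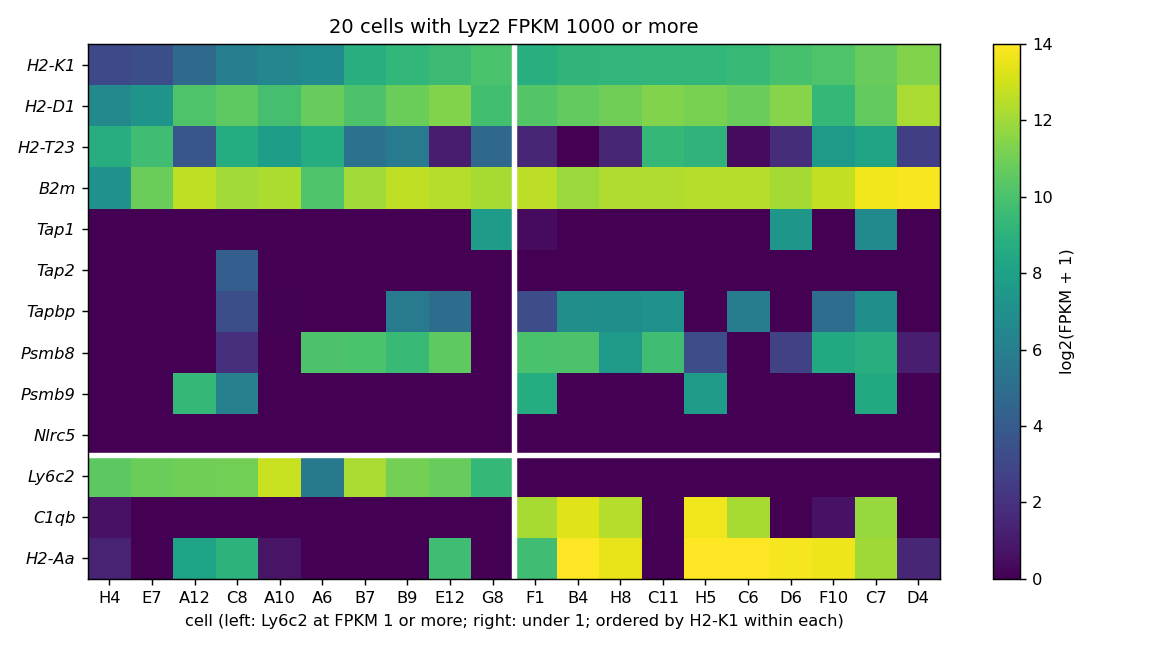
log2(FPKM + 1) of the 10 genes and of Ly6c2, C1qb and H2-Aa in each of the 20 Lyz2-high cells, as colour from 0 to 14; cells left of the white line have Ly6c2 at FPKM 1 or more, and cells are ordered by H2-K1 on each side. H2-K1 is dark in 6 of the 10 cells on the left and in none on the right, while the Tap1, Tap2 and Psmb9 rows are mostly at 0 on both sides.

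C1qb, a complement gene of tissue macrophages, was present in 6 of the 20 cells, none of which held Ly6c2. In these 6 cells 4 of the 8 members were higher by at least 1, against 23.6% of all genes. Tapbp differed by 3.14 (in 5 of 6 cells against 5 of 14), Psmb9 by 3.04 (3 of 6 against 2 of 14), Psmb8 by 2.04 and H2-K1 by 1.67. H2-T23 was the only 1 of the 8 lower by at least 1, at −2.65, against 24.5% of all genes. The heavy chain and light chain genes H2-D1 and B2m differed by 0.63 and 0.73. The median difference was 1.2 over the 8 members and −0.02 over all genes. H2-K1 was 457 to 1714 FPKM in cells with C1qb and 7.38 to 2569 in those without, with medians of 612 and 536, so the ranges overlapped. All 10 cells with Ly6c2 were among those without C1qb. The cells with neither gene, C11, D4, D6 and F10, had 623 to 2569 FPKM of H2-K1, and none lay below the range of the cells with C1qb. With a Lyz2 limit of 100 FPKM, 7 members differed by at least 1, and H2-D1 and B2m came to 2.72 and 2.87. Cells F10 and H4, at 0.60 and 0.63 FPKM of C1qb, lay just under the limit for presence. Median totals were about 2177840 counts in cells with C1qb and 1433690 in cells without, and the part of depth was not tested.

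H2-Aa, a class II alpha chain gene, was present in 13 of the 20 cells. Psmb9 was found in 5 of these and in 0 of the 7 others, a difference of 3.09, and Tapbp in 8 against 2, a difference of 1.48. These were the 2 of the 8 members higher by at least 1, a share close to the 24.1% of all genes. With a pseudocount of 10 Tapbp came to 0.59 and Psmb9 to 1.84, so Psmb9 alone was then higher by at least 1. Psmb9 passed the limit of 3 cells through the cells with H2-Aa alone, so it could only be higher there. H2-T23 was the only 1 of the 8 lower by at least 1, at −3.11, with medians of 5.03 and 222 FPKM, against 19.9% of genes. The counts thus show no excess of members over all genes. Classical heavy chains and B2m differed by 0.40 to 0.87, and the median difference was 0.44 over the 8 members and 0.09 over all genes. Cells D4 and H4 were just above the limit, at 1.82 and 1.5 FPKM of H2-Aa. Psmb8 differed by −0.65, and this value changed sign without A6, B7 or C11, each left out in turn. With the limit at 50 FPKM, 5 members differed by at least 1 in place of 3, H2-K1 being at 1.24 and Psmb8, its sign reversed, at 1.26. Without G8, 6 members did so. Median totals were about 1837290 counts in cells with H2-Aa and 1079790 in cells without, and the part of depth was not tested. The splits by Ly6c2, C1qb and H2-Aa share cells and are not separate pieces of evidence, and a class drawn from 1 gene is a range rather than a cell type.

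**Figure D5:**
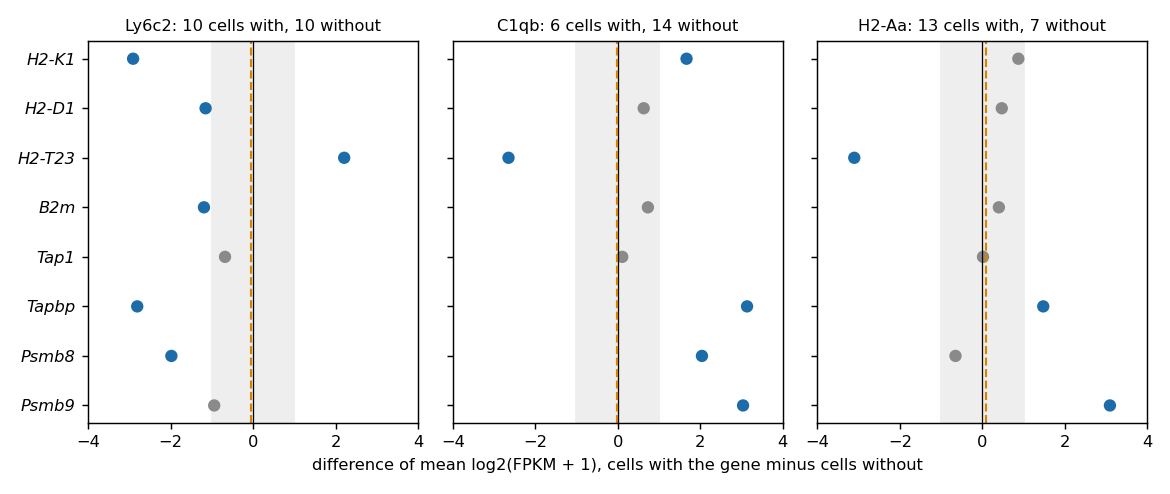
Difference of mean log2(FPKM + 1) between Lyz2-high cells with and without Ly6c2, C1qb or H2-Aa, for the 8 members present in at least 3 of the 20 cells; grey bands mark differences under 1 and the dashed line the median of all genes. H2-K1 lies at −2.91 for Ly6c2 and 1.67 for C1qb, and H2-T23 lies opposite to it in all 3 panels.

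Over the 20 cells the members did not vary as a block. Of 45 pairs, 36 had a Spearman correlation (Nlrc5 is constant), their median was 0.02, and 27 lay within 0.3 of 0. The exceptions were H2-K1 with B2m at 0.61 and H2-K1 with H2-D1 at 0.52. H2-D1 with B2m had 0.35, or a Pearson correlation of 0.73 on log2(FPKM + 1). Without C7 and D4, the cells with the least Lyz2 of the 20, H2-K1 correlated with B2m and with H2-D1 at 0.46 each. These correlations describe cells that share 1 sample and differ in depth. The mean of the 10 genes had a correlation of 0.46 with the number of genes present and −0.14 with total counts.

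Among the 1425 other genes present in at least 50% of the 20 cells, those most like the members' mean log2(FPKM + 1) were Snrpf (Spearman 0.71), a component of the spliceosome, Ctsc (0.69), a lysosomal protease gene, Gm44044 (0.66), Bsg (0.64), the gene of the membrane protein basigin, and Atp6v0c (0.59), of the vacuolar proton pump. Those least like it were the ribosomal protein genes Rps25 (−0.79) and Rps23 (−0.71), the signal recognition particle RNA genes Rn7s1 and Rn7s2 (−0.73 each) and Npepps (−0.72), an aminopeptidase gene. Rn7s1 and Rn7s2 had the same median and are close copies whose reads cannot be told apart. The genes named here are the extremes of 1425 over 20 cells, and Snrpf and Bsg were present in 11 cells each. Members themselves followed the mean loosely, B2m at 0.45, H2-K1 at 0.39, H2-D1 at 0.36 and H2-T23 at 0.03. Likeness to the mean was not tested.

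Outside the Lyz2-high cells the members were mostly at or near 0, with H2-T23 as the exception. In the 10 libraries with few protein-coding counts, H2-K1 and B2m were present in 4 each, H2-D1 in 2, Tap1 and Tap2 in 1 each, and Tapbp, Psmb8, Psmb9 and Nlrc5 in 0, which allows up to 30% by 3 cells of the total and 30.8% by the exact interval. H2-T23 was present in all 10, from 21.1 to 132 FPKM with a median of 70.3. Its expected counts were not whole in all 10, the mark of divided reads, and their part was not tested. Presence in all 10 was met by 5.16% of the 15431 genes found in any cell. The related heavy chain genes H2-Q4 and H2-Q7 were likewise present in all 10, while H2-Q4 was present in 6 of the 20 Lyz2-high cells. Markers of unlike cell types, Ms4a1 of B cells, Cxcr2 of neutrophils and Pecam1 of structural cells, were also present in all 10. Single high values did occur in these libraries. E5 had 2326 FPKM of B2m with 2.21 of H2-K1 and no H2-D1, and F8 had 1016 of H2-K1 and 296 of Tap1 with no H2-D1 and no B2m. D10 had 292 of H2-D1 and 146 of B2m. Of the 8 members tested, 6 were higher by at least 1 in the Lyz2-high cells than in these 10 libraries, against 35.0% of 8148 genes, and none was lower, against 30.6%. The median difference was 4.01 over these members and 0.30 over all genes. Of the 6 higher members, Tapbp, Psmb8 and Psmb9 were present in 0 of the 10 libraries. They passed the limit of 3 cells through the Lyz2-high cells alone, so they could only be higher there and their direction is no evidence. Set against all 11 other cells, which include the same 10 libraries, 6 were higher, against 33.2% of 8272 genes. The Lyz2 level and the kind of library cannot be told apart here.

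The cell of well F11, with a library as rich in coding counts as those of the 20, held 6 of the 10 genes. It had 851 FPKM of H2-K1 and 77.5 of H2-D1, below every Lyz2-high cell for H2-D1, and 4010 of B2m. Tapbp was at 89.6 FPKM, Psmb8 at 395 and H2-T23 at 10.9, while Tap1, Tap2, Psmb9 and Nlrc5 were at 0. Against this 1 cell the Lyz2-high cells were higher in mean log2(FPKM + 1) of H2-D1 by 4.0 and of H2-T23 by 1.74. They were lower in H2-K1, Tapbp and Psmb8, at −1.45, −3.68 and −3.44. For Psmb9 and Tap1, at 0 in F11, the Lyz2-high cells had means of 2.01 and 1.11. The comparison rests on a single cell.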

How the data were processed

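Single cells from mouse lung were captured on a Fluidigm C1 chip, and polyadenylated RNA was amplified with a SMARTer kit and made into Nextera XT libraries, which carry no strand, per the labels' protocols. The submitters' processing notes name RSEM, Trimmomatic and CASAVA 1.8 with the build GRCm38, with the aligner, annotation and settings not given in the sources used here. Deposited were expected counts, estimated read counts that RSEM may divide between similar genes, and FPKM values, scaled to transcript length and library. Of the 75 columns of counts, 31 matched the samples and 44 matched none and were not used. No libraries held identical values, and the highest Pearson correlation between any pair was 0.564.

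Presence means an FPKM of at least 1. Differences are of mean log2(FPKM + 1) over genes present in at least 3 cells, and 1 or more was counted. Python 3.11.15 with numpy 2.4.6, pandas 2.3.3, scipy 1.17.1 and Biopython 1.88 (coding sequence alignment, from GENCODE M21 models) was used, and the difference and correlation steps were tested on simulated data. Protein sequences were not used here, and coding sequences took their place. The genes, lists and splits were chosen with earlier results of these data known. Named genes are the 10, the subunit partners, the splitting genes, the 4 genes of each list present in most Lyz2-high cells, and the 5 most and 5 least like the members' mean. Further genes, Zbtb22, Igtp, Socs1, Cxcl9 and the sort genes, are named beside a count, and the result of 1 gene that the rule names is not reported here. Alternatives were other limits for presence (FPKM 5 and 50, expected count 1 and 10, counts thinned to 120829 per cell), Lyz2 limits of 100 and 5000, pseudocounts of 0.1 and 10, FPKM scaled to an equal sum, Pearson correlation, CPM without length scaling for subunits, only libraries with at least 80% coding counts and, added after seeing the data, each cell left out in turn.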

Additional observations from a re-analysis of the deposited data

How the results depend on the processing

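No paired analysis was possible because the cells form 1 group. The counts of members found in at least 50% of cells, of neighbours in level whose order held and of subunit pairs, and the heavy chain ratio, stayed within 1.5 times, or 1 SD, of the values given under each setting run for them. With a Lyz2 limit of 100, which admits 5 low-coding libraries, 3 members in place of 6 differed by 1 or more by Ly6c2, 7 in place of 5 by C1qb and 7 in place of 3 by H2-Aa. The median of Psmb8 then fell under that of H2-T23. There the Ly6c2 differences of H2-D1 and B2m turned to 0.73 and 0.064. With the H2-Aa limit at 50 FPKM, 5 members differed. Leaving out each cell in turn gave 4 to 7 members by Ly6c2, 5 by C1qb in each case, and 3 to 6 by H2-Aa. Against F11 alone, H2-K1, Tapbp and Psmb8 turned to −1.45, −3.68 and −3.44, and H2-T23 turned from −0.42 to 1.74. The number of pairs with a correlation of at least 0.5 was 2 as given, 4 with Pearson correlations at pseudocounts of 0.1, 1 and 10, 5 with a Lyz2 limit of 100, 0 with 5000 and 1 after thinning, so likeness depends on the measure and on C7 and D4. Of 238 differences, ratios and correlations of single genes and pairs, 16 changed sign, 5 of them from a size of 1 or more and 11 from under 1, among these Psmb8 by H2-Aa and H2-T23 and Tap1 across the Lyz2 limit. Depth and amplification limit what absence means for Tap1, Tap2, Psmb9 and Nlrc5, and the 1 group limits every comparison to these cells.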
